A study of Homo sapiens with 54 samples.

Results

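Genes for 10 enzymes that modify collagen after it is made were followed through androgen deprivation and enzalutamide treatment of prostate cancer (PCa) xenografts. They were LOX, LOXL1, LOXL2 and LOXL4 (lysyl oxidases), P3H2, P4HA1 and P4HA2 (prolyl hydroxylases) and PLOD1, PLOD2 and PLOD3 (lysyl hydroxylases), 10 of 60642 human gene symbols in the table. The set was chosen by 2 measured patterns in these same tumors, the near absence of LOX after castration and the lower P3H2 in tumors that relapsed on enzalutamide than in responding ones, so those 2 patterns are described without a test. Of the 10 members, 9 passed the expression filter of 1 TPM (transcript abundance scaled so that a whole library sums to 1000000) or more in at least 8 tumors, as did 17131 genes in all. LOXL4 did not pass it. LOX passed it only through the intact group, since no more than 4 of its 13 tumors at 1 TPM or more were from the castrated groups.

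RNA-seq was done on 54 tumors, each in its own male NOD-SCID mouse (5 to 6 weeks old on arrival), grown under the skin of the flank from 1000000 LNCaP cells, an androgen-dependent human PCa line. At about 200 mm3 the 9 mice of the PRE-CX group had mock surgery, and their tumors were taken at 1000 mm3. The other 45 mice were castrated, so castration is shared by every other group, namely POST-CX (n = 8, taken 1 week later at the nadir of prostate-specific antigen, PSA), CRPC (n = 10, castration-resistant, taken at PSA recurrence or 1000 mm3), ENZS (n = 12, taken at the second PSA nadir on enzalutamide, an androgen receptor antagonist, at 10 mg/kg by gavage on 5 days per week) and ENZR (n = 15, taken at PSA recurrence or 1000 mm3 on the same treatment). All tumors came from 1 cell line in a host without T and B cells, and the stroma of such a tumor is murine, and the values here cover the reads assigned to human genes, with mouse genes left out by the authors. PRE-CX tumors were taken at 1000 mm3, while the others were taken by PSA or at that size. Castration and tumor size at harvest therefore cannot be told apart in comparisons with PRE-CX.

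Collagen chains are hydroxylated on proline and lysine in the endoplasmic reticulum before they fold into a triple helix. Prolyl 4-hydroxylation makes the helix stable at body temperature, and lysyl hydroxylation prepares sites for sugars and for cross-links. After secretion, lysyl oxidases turn lysines into aldehydes that cross-link collagen and elastin, which stiffens the matrix. The hydroxylases use oxygen, iron and ascorbate, and several of the genes, among them LOX, PLOD2, P4HA1 and P4HA2, are textbook targets of hypoxia-inducible factor (HIF).

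Promoter sequence is shown for the members on which the results turn, because the hypoxia response is compared with them further on. Each window holds the 250 bases upstream of a RefSeq start (GRCh38.p14) on the gene's own strand, 5′ to 3′, and capitals mark ACGTG or GCGTG on either strand, the core of the HIF binding element. LOX is on the minus strand of chromosome 5 (window chr5:122078260-122078509), PLOD2 on the minus strand of chromosome 3 (chr3:146161185-146161434), P4HA1 on the minus strand of chromosome 10 (chr10:73096867-73097116) and P3H2 on the minus strand of chromosome 3, with an outer start (chr3:190122279-190122528) and an inner one (chr3:190120898-190121147).
LOX: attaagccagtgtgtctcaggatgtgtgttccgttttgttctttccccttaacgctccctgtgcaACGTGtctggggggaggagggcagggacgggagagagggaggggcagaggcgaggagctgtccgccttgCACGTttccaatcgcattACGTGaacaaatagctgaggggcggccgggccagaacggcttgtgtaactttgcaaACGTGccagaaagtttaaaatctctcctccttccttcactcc
PLOD2: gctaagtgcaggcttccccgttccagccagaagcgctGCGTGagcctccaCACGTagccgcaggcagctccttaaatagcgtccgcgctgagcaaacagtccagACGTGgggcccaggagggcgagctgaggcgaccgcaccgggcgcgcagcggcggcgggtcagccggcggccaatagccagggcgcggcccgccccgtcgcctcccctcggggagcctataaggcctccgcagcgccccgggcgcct
P4HA1: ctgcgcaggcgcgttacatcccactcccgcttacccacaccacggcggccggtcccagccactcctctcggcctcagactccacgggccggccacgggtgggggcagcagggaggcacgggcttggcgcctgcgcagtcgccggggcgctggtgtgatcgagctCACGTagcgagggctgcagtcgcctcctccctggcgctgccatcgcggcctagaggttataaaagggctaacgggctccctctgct
P3H2, outer start: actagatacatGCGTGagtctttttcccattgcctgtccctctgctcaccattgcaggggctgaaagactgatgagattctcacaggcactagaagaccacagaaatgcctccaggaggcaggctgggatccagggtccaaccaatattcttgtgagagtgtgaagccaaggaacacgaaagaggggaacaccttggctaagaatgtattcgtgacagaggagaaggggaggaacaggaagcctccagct
P3H2, inner start: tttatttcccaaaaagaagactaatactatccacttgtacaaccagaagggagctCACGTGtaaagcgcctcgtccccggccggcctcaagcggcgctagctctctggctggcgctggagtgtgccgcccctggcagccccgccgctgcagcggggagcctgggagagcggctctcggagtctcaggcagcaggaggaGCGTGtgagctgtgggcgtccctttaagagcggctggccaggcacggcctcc
LOX has 3 RefSeq starts, of which the outermost is shown, and the windows of the other 2, which overlap each other, held 2 matches each. The LOX window shown held 4 matches, all ACGTG, the PLOD2 window 3, the P4HA1 window 1, the outer P3H2 window 1 and the inner P3H2 window 3, where the palindrome CACGTG counts on both strands. Over 9 members with a window used here there were 12 starts, of which 8 held at least 1 match. No LOXL2 window was used, and the windows of P4HA2, PLOD3, LOXL4 and LOXL1 held no match. Among 35116 RefSeq windows of the same length, 18.5% held ACGTG, 32.2% held GCGTG and 43.2% held either, so a single match is common and describes letters, not binding.

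Groups were compared as log2(TPM + 1) with limma in 1 fit over all genes, and a gene is said to be called where its adjusted p was below 0.05 and its log2 difference was at least 1 in size (the fold threshold). Alternative settings rescaled each tumor to a sum of 1000000, centered it on its median, used a pseudocount of 0.1 TPM or changed the genes or tumors in the fit. Human TPM summed to between 12.1% and 97.5% of 1000000 in a tumor, and ENZR mouse 87 (12.1%) and POST-CX mouse 91 (27.9%) stood apart. A low sum lowers all human genes of that tumor together, so called member results that involve their groups are also given without these 2 tumors. Of 10 markers of prostate epithelium, all 10 averaged 1 TPM or more in each group, as the labels' cell line asks. Of 5 endothelium markers 1 averaged 1 TPM or more, and PECAM1 and KDR stayed under 0.1 TPM in all tumors.

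LOX, the founding lysyl oxidase (chromosome 5, 122063195 to 122078259), was expressed in all 9 intact tumors and at a small fraction of that level in all 45 castrated ones. In PRE-CX it measured 9.08 TPM in the lowest tumor, 28.3 in the median and 57.7 in the highest (31.1 ± 15.3, SD, n = 9). In POST-CX the lowest, median and highest were 0.09, 0.645 and 2.75 TPM (0.998 ± 1.05, n = 8). In CRPC they were 0.08, 0.3 and 3.65 TPM (0.655 ± 1.08, n = 10). No castrated tumor reached the lowest intact tumor, and the nearest was CRPC mouse 78 at 3.65 TPM. In ENZS the values ran from 0.02 through a median of 0.21 to 2.06 TPM in mouse 45 (0.373 ± 0.546, n = 12). In ENZR they ran from 0.01 through 0.1 to 0.67 TPM (0.212 ± 0.242, n = 15), so that no relapsed tumor on enzalutamide reached 1 TPM. The mean was 31.1-fold higher in PRE-CX than in POST-CX, 47.4-fold higher than in CRPC, 83.4-fold higher than in ENZS and 147-fold higher than in ENZR. On the log2(TPM + 1) scale these differences were -3.99, -4.27, -4.44 and -4.58 relative to PRE-CX, a scale that understates changes near 1 TPM. They are the pattern that chose the set and carry no test, and in bulk tumors fewer expressing cells and less RNA per cell cannot be told apart.

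Among the castrated groups the order of LOX means was POST-CX, CRPC, ENZS and ENZR from high to low, and the ranges of neighbors overlapped. The log2 differences were -0.28 (SE 0.25) for CRPC against POST-CX, -0.17 (SE 0.23) for ENZS against CRPC and -0.14 (SE 0.20) for ENZR against ENZS. Only 4 castrated tumors reached 1 TPM, so these values lie mostly under the pseudocount of 1 TPM and nothing is drawn from the differences. Without CRPC mouse 78 the CRPC mean was 0.322 TPM (SD 0.25, n = 9).

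**Figure D1:**
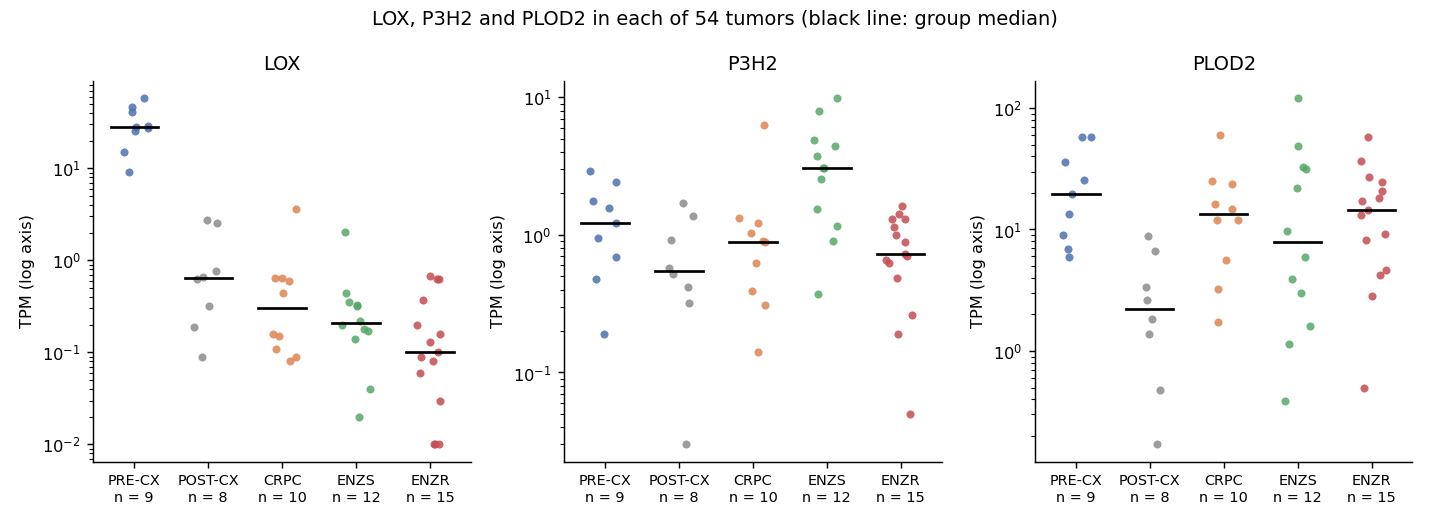
TPM (log axis) of LOX, P3H2 and PLOD2 in each tumor by group, with 1 point per tumor and a black line at the group median. All LOX points of castrated tumors lie at or under 3.65 TPM, below the lowest PRE-CX point at 9.08, PLOD2 has its lowest median in POST-CX at 2.24 TPM, and P3H2 has its highest median in ENZS at 3.07 TPM.

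LOXL1, a lysyl oxidase known for its part in elastic fibers (chromosome 15, 73926462 to 73952136), was lower in both enzalutamide groups than in intact tumors. It measured 1.33, 6.88 and 13.4 TPM in the lowest, median and highest PRE-CX tumor. The corresponding values were 0.88, 1.92 and 3.35 TPM in ENZS and 0.13, 1.58 and 6.31 TPM in ENZR. All 12 ENZS and all 15 ENZR tumors lay under the PRE-CX median, though only 2 and 4 of them lay under its lowest tumor. LOXL1 fell by 1.12 (log2, SE 0.26) in ENZS, with a limma adjusted p of 0.000423, and by 1.16 (SE 0.25) in ENZR, with an adjusted p of 0.00022. Without PRE-CX mouse 111, which held the highest value, the ENZS difference was -0.98 and no longer reached the fold threshold, and without the 2 low-sum tumors the ENZR difference was -1.07. POST-CX (3.31 ± 1.59 TPM) and CRPC (3.89 ± 1.33 TPM) lay in between, with differences of -0.70 (adjusted p = 0.17) and -0.44 (adjusted p = 0.396) from PRE-CX that did not pass.

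LOXL2, which cross-links basement membrane collagen (chromosome 8, 23296897 to 23404120), stood near 1 TPM and leaned the other way. Its means were 0.64 ± 0.365 TPM in PRE-CX, 0.868 ± 0.535 in POST-CX, 1.46 ± 1.16 in CRPC, 2.20 ± 1.21 in ENZS and 1.40 ± 0.771 in ENZR. All 12 ENZS tumors lay above the PRE-CX median of 0.68 TPM and 10 of them above the highest PRE-CX tumor at 1.12 TPM. The log2 difference of 0.91 (SE 0.21, adjusted p = 0.000376) passed the test but not the fold threshold. With a pseudocount of 0.1 TPM in place of 1 it was 1.64 (adjusted p = 0.000556) and was called. LOXL4 (chromosome 10, 98247690 to 98268194) was listed at 0 in 42 of 54 tumors and at no more than 0.02 TPM in any.

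P3H2, a prolyl 3-hydroxylase that acts on basement membrane collagens (chromosome 3, 189956728 to 190122278), was low in most groups and highest in tumors responding to enzalutamide. In ENZS its lowest, median and highest values were 0.37, 3.07 and 9.83 TPM (3.63 ± 2.86, n = 12). In ENZR they were 0.05, 0.73 and 1.62 TPM (0.827 ± 0.472, n = 15). Of the 12 ENZS tumors, 8 lay above the highest ENZR tumor and 11 above the ENZR median, while the other 4 overlapped the ENZR range. The mean was 4.39-fold higher in ENZS than in ENZR, and the log2 difference was -1.14 (SE 0.23). This is the second pattern that chose the set and it carries no test. The difference ran from -0.94 after centering to -1.81 with a pseudocount of 0.1 TPM, was -1.09 without the 2 low-sum tumors, and lay between -1.28 and -1.01 when 1 tumor was left out.

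Elsewhere P3H2 was 1.36 ± 0.907 TPM in PRE-CX, 0.733 ± 0.564 in POST-CX and 1.31 ± 1.79 in CRPC, where mouse 81 held 6.29 TPM and the other 9 averaged 0.759 ± 0.416. Each comparison that follows uses the 12 ENZS or the 15 ENZR tumors, and the P3H2 values of both groups chose the gene. None of these comparisons is therefore independent of that choice, and their p values are given as a description only. P3H2 was higher in ENZS than in CRPC by 0.98 (SE 0.26, adjusted p = 0.0107) and than in PRE-CX by 0.82 (SE 0.27, adjusted p = 0.0115), both under the fold threshold. The ENZS against CRPC difference was called after rescaling each tumor to 1000000 (1.06, adjusted p = 0.00221), with a pseudocount of 0.1 TPM (1.56, adjusted p = 0.034) and when any 1 of CRPC mice 36 and 81 and ENZS mice 17, 28, 56 and 76 was left out. With that pseudocount the PRE-CX comparison was called too (1.22, adjusted p = 0.044). Against POST-CX it rose by 1.23 (SE 0.28, adjusted p = 0.00111), a difference of 1.203 without the 2 low-sum tumors that after centering was 0.93 and under the fold threshold. ENZR did not differ detectably from PRE-CX (-0.32, adjusted p = 0.367), CRPC (-0.16, adjusted p = 0.821) or POST-CX (0.09, adjusted p = 0.93).

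P4HA1 and P4HA2 encode catalytic subunits of prolyl 4-hydroxylase. P4HA1 (chromosome 10, 73007217 to 73096866) had the highest group means of the members on the length-corrected TPM scale, at 98.3 ± 49.6 TPM in PRE-CX, 85.2 ± 26.0 in POST-CX, 133 ± 44.9 in CRPC, 191 ± 93.2 in ENZS and 153 ± 117 in ENZR. Its 12 ENZS tumors ran from 73.7 to 356 TPM with a median of 181, and 11 lay above the PRE-CX median of 87.2. The ENZS against PRE-CX difference of 0.92 (SE 0.35, adjusted p = 0.0305) was under the fold threshold and passed it when PRE-CX mouse 62 or ENZS mouse 17 or 101 was left out. P4HA2 (chromosome 5, 132190147 to 132227853) was 16.6 ± 6.02 TPM in PRE-CX, 9.62 ± 3.80 in POST-CX, 11.8 ± 3.83 in CRPC, 22.4 ± 9.89 in ENZS and 16.0 ± 6.73 in ENZR. Of the ENZS tumors 7 of 12 lay above the highest CRPC tumor (19.1 TPM), and the difference from CRPC was 0.80 (SE 0.26, adjusted p = 0.0413), under the fold threshold. Both genes were higher in ENZS than in POST-CX, P4HA1 by 1.06 (SE 0.36, adjusted p = 0.0303) and P4HA2 by 1.11 (SE 0.28, adjusted p = 0.00344). Without the 2 low-sum tumors these differences were 0.89 and 0.98 and fell under the fold threshold, as they did when each tumor was rescaled or centered on its median.

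PLOD2, the lysyl hydroxylase of collagen telopeptides (chromosome 3, 146069440 to 146161184), was lower 1 week after castration and did not differ detectably from its intact level in the later groups. In PRE-CX its lowest, median and highest values were 5.93, 19.4 and 57.9 TPM (25.7 ± 20.5, n = 9). In POST-CX they were 0.17, 2.24 and 8.77 TPM (3.16 ± 3.05, n = 8). All 8 POST-CX tumors lay under the PRE-CX median and 6 of them under the lowest PRE-CX tumor. The mean was 8.12-fold higher in PRE-CX, and PLOD2 fell by 2.61 (log2, SE 0.66), with a limma adjusted p of 0.0107. It fell by 2.40 without the 2 low-sum tumors (adjusted p = 0.0123), and the call held whichever single tumor was left out.

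In CRPC the lowest, median and highest PLOD2 values were 1.74, 13.3 and 59.6 TPM (17.4 ± 16.8, n = 10). In ENZS they were 0.39, 7.83 and 120 TPM (23.4 ± 34.3, n = 12), with mouse 45 alone at 120 and a mean of 14.6 ± 16.5 without it. In ENZR they were 0.5, 14.4 and 57.4 TPM (17.2 ± 15.0, n = 15). All 3 groups overlapped both the PRE-CX and the POST-CX range. The difference from PRE-CX was -0.63 (adjusted p = 0.668) in CRPC, -0.94 (adjusted p = 0.214) in ENZS and -0.65 (adjusted p = 0.422) in ENZR, and none passed. CRPC exceeded POST-CX by 1.98 (SE 0.65), with an unadjusted p of 0.0033 but an adjusted p of 0.499 over all genes. The ENZS against POST-CX difference of 1.67 (SE 0.62, adjusted p = 0.0489) was called. It was 1.45 (adjusted p = 0.0816) without the 2 low-sum tumors, and among fits leaving out 1 tumor the call held only without POST-CX mouse 44 or 99 or ENZS mouse 17, 49, 57, 80, 101 or 106. The ENZR against POST-CX difference of 1.96 (SE 0.60) had an adjusted p of 0.05 and was called in 5 of 6 alternative settings, with 1.97 (adjusted p = 0.0266) without the 2 low-sum tumors.

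PLOD1 (chromosome 1, 11934717 to 11975537) and PLOD3 (chromosome 7, 101205984 to 101217581), which also carries glycosyltransferase activity, were not called. PLOD1 means ran from 63.1 TPM in POST-CX to 97.1 in ENZS and PLOD3 means from 16.0 in POST-CX to 23.7 in PRE-CX. Neither passed in any of the 10 comparisons, although all 8 POST-CX and all 12 ENZS tumors lay under the PRE-CX median of PLOD3 at 24.3 TPM.

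**Figure D2:**
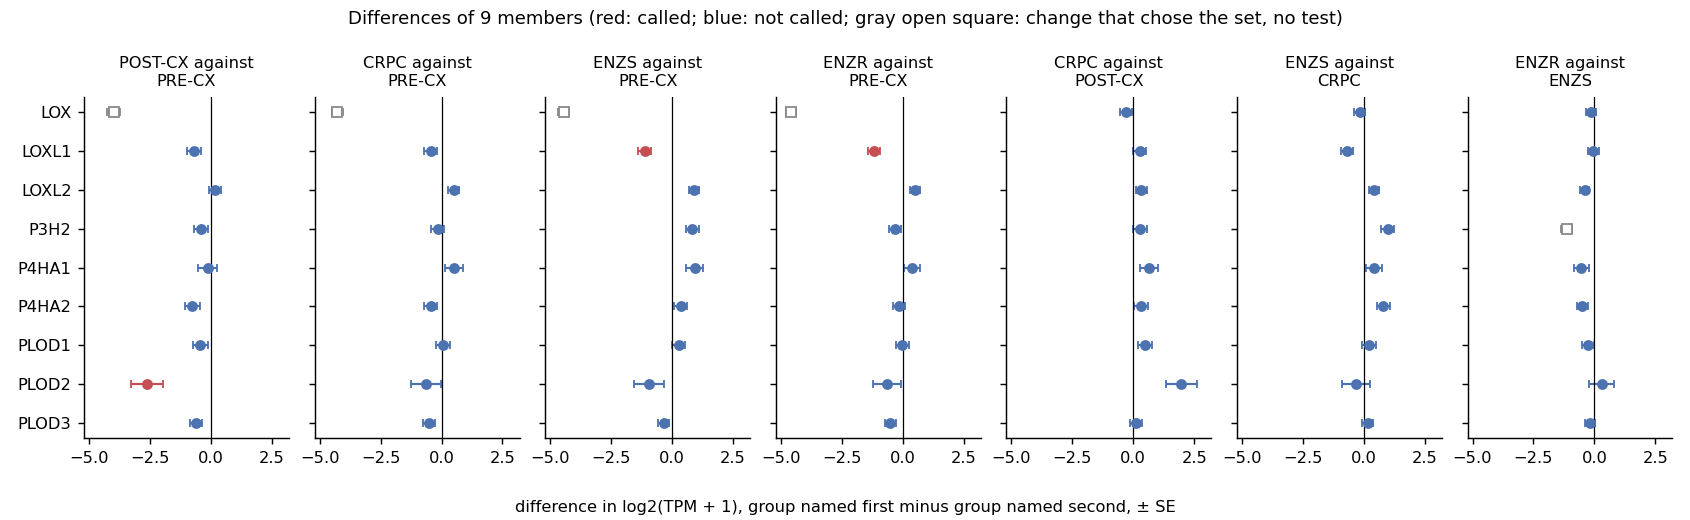
Differences in log2(TPM + 1) with their standard errors for 9 members in 7 comparisons, the group named first minus the group named second. Red points were called, blue points were not, and gray open squares are the LOX and P3H2 changes that chose the set. PLOD2 is the red point in POST-CX against PRE-CX at -2.61, and LOXL1 is the red point at -1.12 in ENZS and -1.16 in ENZR.

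Counted over the members other than the gene that chose a comparison, 1 of 8 was called in POST-CX against PRE-CX (PLOD2, lower), where 2.62% of all genes tested were called, 0.916% higher and 1.7% lower. None of 8 was called in CRPC against PRE-CX (2 at an unadjusted p under 0.05 in limma), where 3.17% of all genes were called, 2.17% higher and 1% lower. In ENZS against PRE-CX 1 of 8 was called (LOXL1, lower), against 12.7% of all genes, 9.46% higher and 3.27% lower. In ENZR against PRE-CX 1 of 8 was called (LOXL1, lower), against 8.55%, 4.65% higher and 3.9% lower. With so few members a single call is not far from those background shares. The median log2 difference over all 9 members was -0.61, -0.44, 0.27 and -0.32 in these comparisons, against -0.05, 0.11, 0.26 and 0.07 over all genes. These member medians include LOX, whose fall chose the set and lowers them, so nothing is read from the gap. The split of all called genes by direction moved with the scaling, from 157 higher and 291 lower in POST-CX to 420 and 225 after rescaling, from 796 and 668 in ENZR to 1299 and 498 after rescaling, and from 1620 and 560 in ENZS to 880 and 942 after centering.

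None of 9 members was called in CRPC against POST-CX, where PLOD2 was the 1 member at an unadjusted p under 0.05 in limma and 0% of all genes were called, with 1154 of 17131 at an unadjusted p under 0.05. None of 9 was called in ENZS against CRPC (4 at an unadjusted p under 0.05), where 2.42% of all genes were called, 1.09% higher and 1.33% lower. None of the 8 members other than P3H2 was called in ENZR against ENZS (2 of them, and 1914 of all genes, at an unadjusted p under 0.05 in limma), where 0.00584% of all genes were called, and nothing is read from that share because P3H2 was chosen on this comparison. In the comparisons added later, 4 of 9 were higher in ENZS than in POST-CX (P3H2, P4HA1, P4HA2 and PLOD2), against 4.82% of all genes called, 3.72% higher and 1.1% lower. The ENZS values of P3H2 also chose the set, so its call adds nothing to this count as a result about the members. The count was 1 without the 2 low-sum tumors, which was P3H2 itself, and 0 after centering. None of 9 was called in ENZR against CRPC (1 at an unadjusted p under 0.05), where 1.37% of all genes were called, 0.169% higher and 1.2% lower. None of 9 was called in ENZR against POST-CX (3 at an unadjusted p under 0.05 in limma, 1 of them LOX), where 1.51% were called, 0.753% higher and 0.753% lower. In comparisons of castrated groups LOX is counted as a member although it passed the expression filter only through PRE-CX. P3H2 is counted against CRPC and POST-CX although its ENZS and ENZR values chose the set. Nothing is read from the place of either gene in these counts. The step from ENZS to ENZR was also set against the step from POST-CX to CRPC, and none of 8 members was called for the difference (4 at an unadjusted p under 0.05), where 0.187% of all genes were called. The direction split of all called genes also moved in ENZS against POST-CX, from 637 higher and 189 lower to 220 and 303 after centering, in ENZR against CRPC, from 29 and 205 to 117 and 144 after rescaling, and in ENZS against CRPC, from 186 and 228 to 107 and 329 after centering and 279 and 218 after rescaling.

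Of 21 genes that help the members fold and process collagen 15 were tested. In POST-CX and CRPC 1 of them was called against PRE-CX, in ENZS 2 (4 after rescaling, 5 with a pseudocount of 0.1 TPM and 1 after centering) and in ENZR 1 (2 and 3 in the first and second of those settings), all higher. Of all genes tested, 0.916%, 2.17%, 9.46% and 4.65% were called higher in POST-CX, CRPC, ENZS and ENZR, and nothing is read from counts this small. TMEM38B, an endoplasmic reticulum potassium channel needed for normal collagen hydroxylation, rose in all 4 castrated groups, from 14.1 ± 3.71 TPM in PRE-CX to 77.0 ± 36.8 in POST-CX, 67.7 ± 35.2 in CRPC, 87.9 ± 36.5 in ENZS and 74.9 ± 47.4 in ENZR. Its log2 differences were 2.26, 2.05, 2.49 and 2.01 in that order (SE 0.33 to 0.38), and it was called under all 6 alternative settings. The 1 other partner called against PRE-CX was PCOLCE, an enhancer of procollagen cleavage, higher in ENZS by 1.13 (SE 0.25) but not called after centering. FKBP14, a prolyl isomerase of the endoplasmic reticulum, was higher in ENZS than in POST-CX by 1.05, also not called after rescaling, after centering or without the 2 low-sum tumors. P4HB, the shared subunit of prolyl 4-hydroxylase, was abundant throughout, with means from 576 TPM in POST-CX to 854 in ENZS, and P3H1, CRTAP and PPIB, which form a complex that 3-hydroxylates prolines, were not called in any comparison.

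Of 29 collagen and elastin chain genes 14 were tested, and the others did not pass the expression filter. COL12A1, a fibril-associated chain, was lower in all 4 castrated groups. It was 12.9 ± 14.2 TPM in PRE-CX, with a lowest tumor of 0.12 and a highest of 43.8, against means of 1.85, 1.18, 1.60 and 1.45 TPM in POST-CX, CRPC, ENZS and ENZR. COL12A1 fell by 1.75, 2.07, 1.80 and 2.10 on the log2 scale in that order, and the POST-CX call was lost with a pseudocount of 0.1 TPM. Only 2, 1, 1 and 1 tumors of these groups lay under the lowest PRE-CX tumor. Under the PRE-CX median of 8.32 TPM lay 8 of 8, 10 of 10, 12 of 12 and 14 of 15. COL5A2 rose in all 4 groups, from 1.38 ± 1.56 TPM in PRE-CX to 10.9 ± 2.58 in POST-CX, 15.9 ± 9.82 in CRPC, 37.2 ± 27.4 in ENZS and 65.9 ± 75.1 in ENZR, with log2 differences of 2.46, 2.73, 3.70 and 4.08. COL3A1, a fibrillar chain, rose in CRPC (1.83), ENZS (2.89) and ENZR (3.37), and in ENZR it was also higher than in CRPC (1.55), a call lost with no expression filter. COL18A1 and COL6A2 rose in ENZS (1.79 and 1.58) and ENZR (1.47 and 1.13), and COL6A2 was also higher in ENZS than in CRPC (1.04), a call lost after centering. In all, 1 chain was higher and 1 lower in POST-CX, 2 and 1 in CRPC, 4 and 1 in ENZS and 4 and 1 in ENZR, where 2.62%, 3.17%, 12.7% and 8.55% of all genes were called. The POST-CX counts were 4 higher and 1 lower after rescaling and 2 and 0 with a pseudocount of 0.1 TPM. In ENZR against CRPC 1 was higher, 3 after rescaling and 0 with no expression filter, and 0 were called in CRPC against POST-CX, where 0 were at an unadjusted p under 0.05 either. The median log2 difference over the 14 chains was 0.30, 0.26, 0.58 and 0.35 in the 4 comparisons with PRE-CX, against -0.05, 0.11, 0.26 and 0.07 over all genes.

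**Figure D3:**
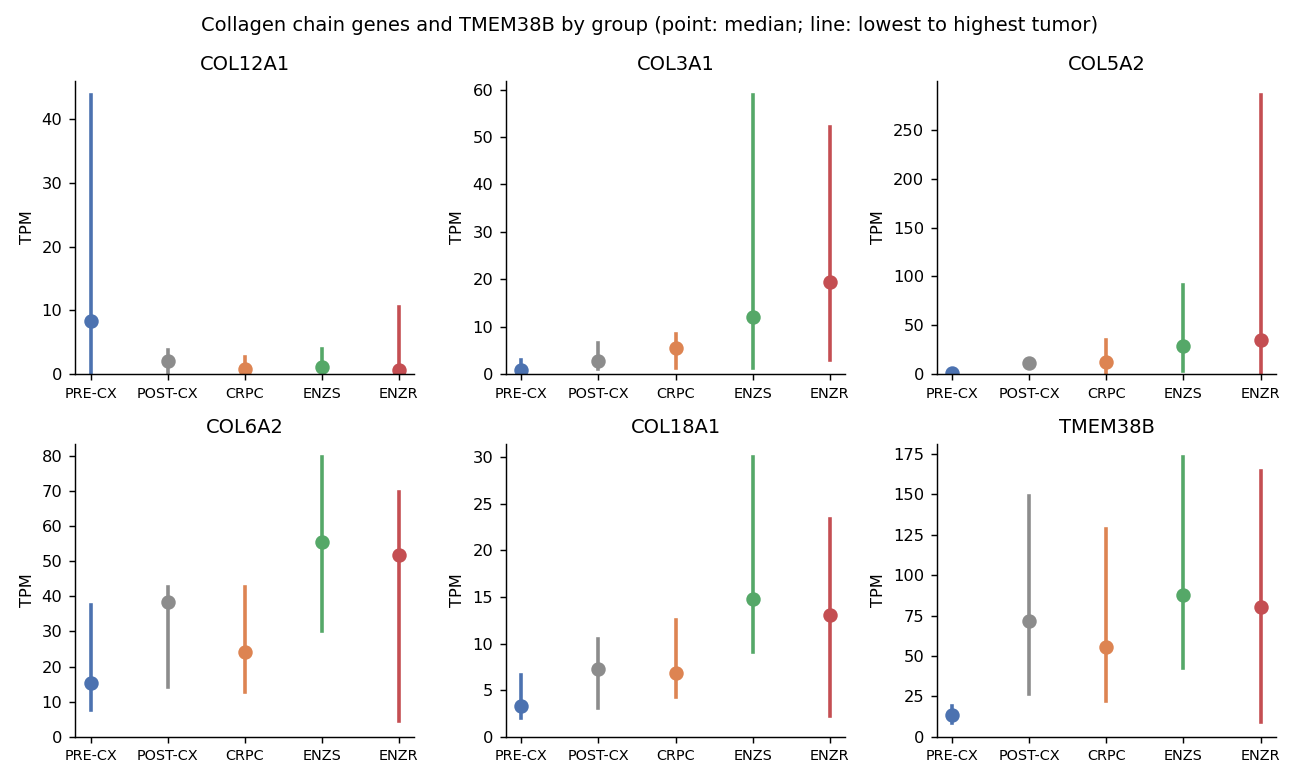
TPM of 5 collagen chain genes and TMEM38B by group, with a point at the median and a line from the lowest to the highest tumor. COL12A1 is highest in PRE-CX, COL3A1 and COL5A2 are lowest there and reach 58.9 and 286 TPM in single enzalutamide-treated tumors, and TMEM38B in PRE-CX stays at or under 18.9 TPM.

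Fibroblast markers were summed beside these values. The summed TPM of 10 fibroblast markers ran from 4.01 to 13.4 in PRE-CX, 4.44 to 23.9 in POST-CX, 9.04 to 88.5 in CRPC, 16.1 to 216 in ENZS and 5.73 to 76.6 in ENZR. COL1A1, COL1A2 and COL3A1 are in this list as well as among the collagen chains. COL3A1, LUM and DCN differed most (LUM 0.318 TPM in PRE-CX, 18.5 in ENZS and 7.75 in ENZR, DCN 0.126, 8.56 and 3.2). Of the 10 markers 4 were tested, and limma called 0 of them in POST-CX against PRE-CX and 3 higher in each of CRPC, ENZS and ENZR, where 2.17%, 9.46% and 4.65% of all genes were called higher. COL1A1 averaged 3.72 TPM in CRPC, under its 6.71 in PRE-CX, and at most 8.27 (ENZS) and PDGFRB 0.323 to 0.477, while COL1A2, PDGFRA, FAP, POSTN and THY1 averaged 0.11 TPM or less in each group. Of the 10 markers 1 averaged 1 TPM or more in PRE-CX, 3 in POST-CX and 4 in each of the other groups. Of 5 leukocyte markers CD68, a macrophage protein, was the 1 tested. It was called higher in ENZS (3.72 TPM, SD 2.996) than in PRE-CX (0.731, SD 0.706), by 1.27, than in CRPC, by 1.29, and than in POST-CX, by 1.57. In ENZR it was called higher than in POST-CX, by 1.08. LYZ went the other way, averaging 0.563 TPM in PRE-CX, 0.301 in ENZS and 0.259 in ENZR. PTPRC, CD14 and CSF1R averaged no more than 0.163 TPM in any group. VWF, a clotting factor carrier made by endothelium, was called lower than in PRE-CX (4.38 ± 1.84 TPM) in CRPC (-1.23) and ENZR (-1.41), while the other 4 endothelium markers averaged under 1 TPM in each group. PLIN1, a lipid droplet protein of adipocytes, was called higher in ENZS than in PRE-CX (1.01) and POST-CX (1.09), while ADIPOQ, the other adipocyte marker, stayed under 0.1 TPM in all tumors. The part of these cell types in the chain and member values was not tested. Whether reads of the murine stroma were assigned to human genes was not tested either, for the markers or the chains.

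Hypoxia response genes were lower in POST-CX than in PRE-CX, as PLOD2 was. PRE-CX tumors were taken at 1000 mm3, and POST-CX tumors 1 week after castration at about 200 mm3. Tumor size at harvest and castration cannot be told apart for these genes. A list of 22 genes induced by hypoxia, which holds no member, had 20 genes tested, and 14 of them fell in POST-CX relative to PRE-CX, against 2.62% of all genes called in either direction. ERO1A, an oxidase of disulfide bond formation, fell by 2.27 (SE 0.42, adjusted p = 0.000214), from 69.4 ± 37.4 to 13.4 ± 5.56 TPM. NDRG1, a stress-response gene, had a difference of -2.20, LDHA, a lactate dehydrogenase subunit, -1.79 and ANKRD37 -1.77. The count of 14 was 12 without the 2 low-sum tumors, 12 after rescaling, 15 after centering, 16 in a fit of the 2 groups alone and 9 with no expression filter. The median over the 20 genes was -1.46, against -0.05 over all genes. None was called in CRPC against PRE-CX (3 at an unadjusted p under 0.05 in limma, median -0.48), although 2 were after rescaling and 2 after centering. In ENZS, where 3.27% of all genes were called lower, 6 were lower (3 to 10 over the alternative settings), among them LDHA (-1.51) and PDK1 (-1.34). In ENZR, where 3.9% of all genes were called lower, 6 were lower, a count of 1 after rescaling and 1 without the 2 low-sum tumors. In CRPC against POST-CX none was called although 15 were at an unadjusted p under 0.05, with a median of 0.92.

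Of 8 genes that sense oxygen or carry the response, HIF1A, the oxygen-regulated alpha subunit, was not called in any comparison, with means from 60.7 TPM in POST-CX to 79.9 in PRE-CX. EGLN3, a HIF prolyl hydroxylase that is itself induced by hypoxia, fell by 1.06 in POST-CX (SE 0.32, adjusted p = 0.0375), from 34.4 to 13.02 TPM, and was not called after rescaling or with no expression filter. EPAS1, which encodes the second HIF alpha subunit, was higher in ENZS than in PRE-CX by 1.52 (SE 0.22) and than in CRPC by 1.18 (SE 0.22), with means of 4.55, 0.84 and 1.45 TPM. Against POST-CX, EGLN1, EGLN3 and EPAS1 were higher in ENZS by 1.25, 1.23 and 1.30, of which EPAS1 alone was still called after centering.

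Within single groups the members were then set against a hypoxia response level, the mean z value of log2(TPM + 1) over the 22 genes, so that group differences cannot produce the relation. Of 45 pairs of member and group, 22 passed at a permutation p adjusted over the 45 (Pearson's r), 15 by Spearman's rho, and 9 after rescaling. Of the 22, 6 were in POST-CX and 6 in ENZR, against 5 in PRE-CX, 3 in ENZS and 2 in CRPC. After rescaling 1 was left in POST-CX and 2 in ENZR. The share of all genes that would pass was not measured, so nothing is read from the count. In POST-CX and ENZR, which hold the 2 low-sum tumors, the median gene of the whole table had an r of 0.90 and 0.77 with the level, against -0.20 in PRE-CX, 0.15 in CRPC and 0.02 in ENZS. PLOD2 passed in all 5 groups under deposited, rescaled and centered values. Its r was 0.88 in PRE-CX (n = 9, rho 0.98, adjusted exact permutation p = 0.000641), 0.81 in POST-CX (n = 8, rho 0.90, adjusted exact permutation p = 0.0195), 0.87 in CRPC (n = 10, rho 0.87, adjusted permutation p = 0.00485), 0.93 in ENZS (n = 12, rho 0.85, adjusted permutation p = 0.00045) and 0.89 in ENZR (n = 15, rho 0.90, adjusted permutation p = 0.000225). Without the 2 tumors farthest from the median level r was 0.95, 0.88, 0.92, 0.88 and 0.88, and after rescaling it was 0.88, 0.88, 0.86, 0.93 and 0.85. Without the 2 low-sum tumors it did not pass in POST-CX (r 0.77, adjusted exact permutation p = 0.0914). Of all genes, 0.409% had an r at or above that of PLOD2 in PRE-CX, 0.935% in CRPC and 0.181% in ENZS, but 70.3% in POST-CX and 8.85% in ENZR.

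P4HA1 passed in all 5 groups as deposited and in 2 after rescaling, PRE-CX (r 0.96, rho 1, adjusted exact permutation p = 0.000124, n = 9) and ENZS (r 0.83, rho 0.88, adjusted permutation p = 0.0063, n = 12). PLOD1 passed in PRE-CX (r 0.98, rho 0.92, adjusted exact permutation p = 0.00045, n = 9), in ENZR (r 0.93, rho 0.73, adjusted permutation p = 0.00045, n = 15), where it also passed after rescaling (r 0.67, adjusted permutation p = 0.0317), and in POST-CX (r 0.93, adjusted exact permutation p = 0.00811, n = 8), where it did not after rescaling (r 0.47). PLOD1 did not pass in CRPC (r 0.54) or ENZS (r 0.41). The share of all genes with an r at or above that of P4HA1 was 0.0935% in PRE-CX and 0.642% in ENZS. For that gene it was 7.59% in CRPC, 13.4% in POST-CX and 31.8% in ENZR. For PLOD1 the share was 0.0234% in PRE-CX, 1.78% in ENZR and 32.6% in POST-CX. LOX rose with the level among intact tumors, with r 0.77 in PRE-CX (rho 0.72, adjusted exact permutation p = 0.036, n = 9), from 9.08 TPM in mouse 53 at the lowest level to 57.7 TPM in mouse 62 at the highest. That relation did not pass by rho (adjusted exact permutation p = 0.0922) or after rescaling (adjusted exact permutation p = 0.0631), though it did after centering (adjusted exact permutation p = 0.0256), and r was 0.59 without the 2 farthest tumors. In CRPC, LOX showed no detectable relation (r 0.04, rho 0.12). In POST-CX it did not pass either (r 0.42, rho 0.43). In ENZR LOX passed by rho (0.78, adjusted permutation p = 0.00738, n = 15) and not by r (0.54, adjusted permutation p = 0.0666), and r was 0.56 after rescaling (adjusted permutation p = 0.0948) and 0.0072 after centering. In ENZS its r of 0.67 (rho 0.48, adjusted permutation p = 0.0321) did not pass after rescaling and was 0.43 without the 2 farthest tumors, and mouse 45 held both the highest level and the highest LOX of the group. Only 4 castrated tumors reached 1 TPM of LOX, and ENZR values ran from 0.01 to 0.67 TPM. These relations rest on values mostly under the pseudocount, so nothing is drawn from LOX passing in ENZR or ENZS. The intact tumors spanned hypoxia levels from -0.21 to 1.94, and tumors of every castrated group lay within that span. The highest levels were 0.11 in POST-CX, 0.93 in CRPC, 1.63 in ENZS mouse 45 and 1.06 in ENZR mouse 33. LOX was 2.06 TPM in ENZS mouse 45 and 0.67 TPM in ENZR mouse 33. The part of the hypoxia response in the LOX difference between groups was not tested. P3H2 and LOXL2 passed in 0 of 5 groups each under deposited, rescaled and centered values.

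**Figure D4:**
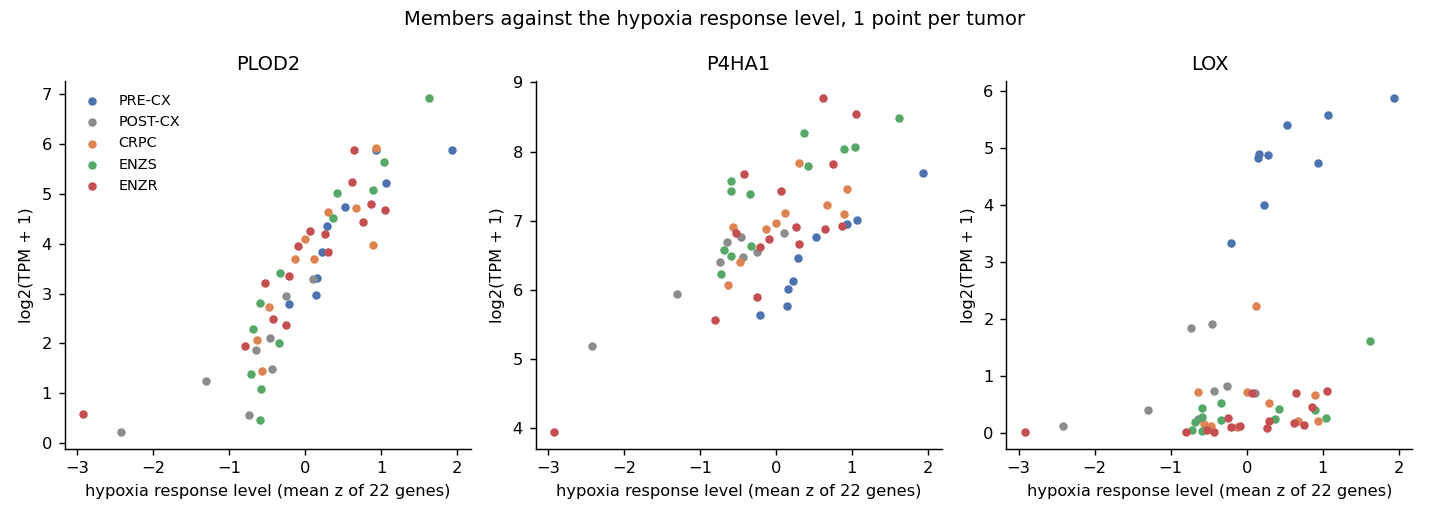
PLOD2, P4HA1 and LOX as log2(TPM + 1) against the hypoxia response level (mean z of 22 genes), with 1 point per tumor colored by group. PLOD2 climbs with the level in each group. LOX points of castrated tumors reach at most 3.65 TPM, and all PRE-CX points lie above them.

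Across all 54 tumors the genes most like LOX were ORM2 (r 0.92), ORM1 (0.92), ST6GALNAC1 (0.92) and AQP4-AS1 (0.89), given as a description with no test. ORM1 and ORM2 encode near-identical plasma glycoproteins, so their reads may be divided arbitrarily between them, and ST6GALNAC1 is a sialyltransferase. Their PRE-CX means were 31.2, 11.2 and 39.0 TPM for ORM1, ORM2 and ST6GALNAC1, against 0.213, 0.0387 and 1.36 TPM in ENZR. With group means removed, r with LOX was between 0.04 and 0.14, so the likeness lay between groups. The genes most like P3H2 were CMTM8 (r 0.71), IZUMO4 (0.67), COBLL1 (0.65) and MAP2 (0.65), and here r with group means removed was still 0.65, 0.52, 0.56 and 0.61.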

How the data were processed

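Per the labels and the study's methods, polyadenylated RNA was sequenced in stranded paired-end libraries. Depth was about 40 M read pairs for each tumor per the labels, and the study's methods give a range around that. The authors deposited TPM per human symbol, made, per the submitters' processing notes, with FastQC 0.11.9, Trim Galore 0.6.5, STAR 2.7.2b and RSEM 1.3.3. The study's methods give a combined GRCh38 and GRCm38 reference (Ensembl 99, Gencode 33), from which mouse genes were left out. TPM carry no read depth of single tumors, so no counting interval is given and precision rests on the spread between mice. The labels used here give no batch.

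Here log2(TPM + 1) was tested, for genes that reached 1 TPM in 8 or more tumors, with limma 3.58.1 (R 4.3.3, trend option) in 1 fit of 5 group means. Values of p were adjusted by Benjamini-Hochberg over all genes of a comparison, and calls needed both an adjusted p below 0.05 and a log2 difference of at least 1 in size. There were 7 comparisons and the difference between the relapse steps, and 3 further comparisons were added after the data were seen. Several comparisons share groups and are not independent. Hypoxia relations used permutation tests (numpy 2.4.6, with ranks for rho from scipy 1.17.1), exact for n under 10 and otherwise with 100000 resamples. The limma step was tested on simulated data. Members, gene lists and tests were chosen with earlier results of these data known. Named genes are the members, at most 4 called genes per list and comparison, and the 4 genes most like LOX or P3H2; other genes named were chosen after their values were seen. Alternatives were rescaling to 1000000, centering on the median, a pseudocount of 0.1 TPM, no expression filter, fits of only the groups compared, and leaving out tumors. Positions and promoters are RefSeq, GRCh38.p14, matched by symbol.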

Additional observations from a re-analysis of the deposited data

Results flagged for a closer look

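In groups of 10 or fewer tumors, 27 member and group combinations were checked for 1 value far from the others, and 5 stood out, where chance alone flags about 1 in 20 for normally distributed values. TPM are skewed, and the rate over other genes was not measured. LOX was 3.65 TPM in CRPC mouse 78, against 0.08 to 0.64 in the other CRPC tumors. P3H2 was 6.29 TPM in CRPC mouse 81, against 0.14 to 1.32 in the others, and PLOD3 in the same tumor was 30.42 TPM, against 11.24 to 17.31. PLOD2 was 59.64 TPM in CRPC mouse 102, against 1.74 to 25.05 in the others, and that tumor had the highest hypoxia response level of its group (0.93). P4HA1 was 205.34 TPM in PRE-CX mouse 62, against 48.55 to 127.99 in the others, and that tumor had the highest level of all 54 (1.94). Without these tumors the group means were 0.322 TPM for LOX, 0.759 for P3H2, 15.1 for PLOD3, 12.7 for PLOD2 and 84.95 for P4HA1.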

How the results depend on the processing

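Over 594 alternative values of single members, 532 kept their direction and call, 12 lost a call, 10 gained one, 5 untested values moved by more than the spread between tumors and 35 changed sign. The sign changes were all in values not called in any setting. After rescaling they were, in POST-CX against PRE-CX 0.13 (P4HA1), in ENZR against PRE-CX 0.072 (P4HA2), 0.23 (PLOD1), in CRPC against POST-CX -0.18 (PLOD3), in ENZR against ENZS 0.016 (LOXL1), 0.012 (PLOD3), for the difference between the relapse steps 0.19 (PLOD3), in ENZR against CRPC 0.17 (P4HA1), 0.21 (PLOD1), 0.18 (PLOD2), 0.24 (PLOD3). Without the 2 low-sum tumors they were, in POST-CX against PRE-CX 0.029 (P4HA1), in ENZR against PRE-CX 0.012 (P4HA2), 0.22 (PLOD1), in CRPC against POST-CX -0.075 (PLOD3), in ENZR against ENZS 0.052 (LOXL1), 0.012 (PLOD3), for the difference between the relapse steps 0.0087 (LOXL1), 0.087 (PLOD3), in ENZR against CRPC 0.094 (P4HA1), 0.17 (PLOD1), 0.20 (PLOD2), 0.17 (PLOD3). After centering they were, in CRPC against PRE-CX -0.060 (PLOD1), in CRPC against POST-CX -0.056 (PLOD3), in ENZR against ENZS 0.065 (LOX), 0.16 (LOXL1), 0.034 (PLOD3), for the difference between the relapse steps 0.065 (LOXL1), 0.091 (PLOD3), in ENZS against POST-CX -0.035 (PLOD3), in ENZR against CRPC 0.049 (PLOD2), 0.056 (PLOD3), in ENZR against POST-CX -0.0066 (P3H2), -0.00052 (PLOD3). P3H2, chosen on its ENZS and ENZR values, is included in the ENZS and ENZR counts against PRE-CX, CRPC and POST-CX below. The count of members called in ENZS against PRE-CX was 3 with a pseudocount of 0.1 TPM and 0 to 2 when 1 tumor was left out. In ENZS against CRPC it was 1 after rescaling, 1 with that pseudocount and 0 to 1 when 1 tumor was left out. In ENZS against POST-CX it was 2 after rescaling, 0 after centering, 2 with no expression filter, 1 without the 2 low-sum tumors and 1 to 4 when 1 tumor was left out. In ENZR against POST-CX it was 1 after rescaling, 1 after centering, 1 with the smaller pseudocount, 1 without the 2 low-sum tumors, 1 in a fit of only the 2 groups and 0 to 1 when 1 tumor was left out. The counts in the other comparisons stayed at 1 (POST-CX and ENZR against PRE-CX) or 0 (CRPC against PRE-CX, CRPC against POST-CX, ENZR against ENZS, ENZR against CRPC and the relapse steps) in each setting and with any 1 tumor left out. Of the 45 hypoxia relations 22 passed, 9 after rescaling and 12 after centering. The alternatives of the 3 added comparisons were chosen after seeing the data. With a pseudocount of 0.1 TPM the LOX differences from PRE-CX were -5.22, -5.92, -6.32 and -6.81. Rescaling moved the median of all genes by more than 0.1 on the log2 scale, from -0.05 to 0.16 in POST-CX and from 0.07 to 0.25 in ENZR, both against PRE-CX, from 0.17 to -0.07 in CRPC and from 0.31 to 0.13 in ENZS, both against POST-CX, from -0.05 to 0.16 in ENZR against CRPC, from -0.19 to -0.04 in ENZR against ENZS and from -0.37 to 0.03 for the relapse steps. No paired analysis was possible because the mouse numbers are not shared between groups. Values of LOX, LOXL2 and P3H2 near or under 1 TPM depend most on the pseudocount. The count of all genes called changed by more than 1.5 times with a pseudocount of 0.1 TPM, from 448 to 742 in POST-CX, 543 to 1093 in CRPC, 2180 to 3647 in ENZS and 1464 to 2620 in ENZR, all against PRE-CX, 414 to 761 in ENZS against CRPC and 826 to 1569 in ENZS against POST-CX. In CRPC against POST-CX it was 0, and 27 in a fit of the 2 groups alone, in ENZR against ENZS 1 by limma (1914 at an unadjusted p under 0.05), and 0 in all 6 alternatives, in ENZR against POST-CX 258, and 108 to 436 over them, in ENZR against CRPC 234, and 155 to 340, and for the relapse steps 32, and 3 to 64.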
